A study of Mus musculus with 7 samples.

Results

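Transcript levels were examined for 10 genes of fatty acid uptake and lipid storage, taken by symbol from the 24421 gene symbols of the count table: Lpl, Gpihbp1, Cd36, Fabp4, Fabp5, Rbp7, Plin2, Plin4, Lipe and Pnpla2. The question was how each differed between fibroblasts of a mammary tumor and stroma of the normal mammary fat pad, and whether each followed the genes of capillaries or those of fat cells. The tumor group, pCAF, held 3 libraries of Ter119-, CD45-, EpCAM- and PDPN+ cells. They were sorted from tumors of 1 cm that 100000 4T1-luc cells, a mouse mammary carcinoma line carrying luciferase, had formed after injection into the mammary fat pad of female BALB/c mice. The 4 NMF libraries, the normal group, came from the normal mammary fat pad of untreated BALB/c mice. Their cells were sorted as Ter119-, CD45- and EpCAM- but with no selection on PDPN, so NMF could hold capillary and other PDPN-negative cells that the pCAF sort left out. The pCAF mice were injected at 8 weeks of age, which is also the age their sample labels give, and the NMF mice are labelled 12 weeks old; the design text describes the groups as age matched. The tumor was digested with collagenase A and the fat pad with collagenases II and IV, so sort, age and digestion cannot be told apart from tumor against normal tissue. Replicates were labelled biological but the animals were not identified, so a p-value here covers the spread of these 7 libraries, which may be technical. The selection field of pCAF replicate 3 reads PDPN-, against PDPN+ in its title and source.

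Triglyceride reaches fat tissue in lipoproteins, from which lipoprotein lipase (Lpl) frees fatty acids at the capillary wall. Gpihbp1 carries the lipase across capillary endothelium and holds it there, Cd36 takes up the freed fatty acids, and the binding proteins Fabp4 and Fabp5 carry them inside cells. Fat cells store them as triglyceride in droplets coated by perilipins, and Pnpla2 and Lipe release them in the first steps of lipolysis. Cd36, Fabp4 and Lpl are known both from fat cells and from other cells of fat tissue, Cd36 and Fabp4 from capillary endothelium and Lpl from macrophages. Rbp7, a retinol-binding relative of the Fabp proteins, is known from the endothelium of fat tissue.

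Each library read the 3' ends of polyadenylated RNA, and total counts ran from 1885039 to 2184389 in pCAF and from 2223198 to 4990070 in NMF. Values are CPM, the count of a gene scaled to a common effective library size. Fewer genes were detected in pCAF replicate 1 (11090) than in any other library (13222 to 14353). It and NMF replicate 4 differed most from the rest of their own groups, so calls of the 10 genes that change without either are named. The summed level of 10 fibroblast markers was 73148 to 82626 CPM in pCAF and 26325 to 46172 CPM in NMF, so fibroblast markers were abundant in both groups. Of these 10 markers 5 were higher in pCAF and 2 lower. The 5 include Pdpn, at 550 CPM in pCAF and 49.5 CPM in NMF on average. Only pCAF was selected on PDPN, so this call cannot be told apart from the sort. The number higher was 3 without pCAF replicate 2 or NMF replicate 1, and the number lower was 1 without any single library other than pCAF replicate 1.

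Of the 10 genes, 8 were lower in pCAF, 0 were higher and 2 did not pass at an adjusted p of 0.05 (edgeR's quasi-likelihood test with Benjamini-Hochberg adjustment over 10535 tested genes). Over all tested genes, 14.2% were lower and 14.3% higher, 28.4% in all. In 9 of the 10, every pCAF library lay below every NMF library, as did 21.4% of all tested genes; the groups were separate in either direction for 40.4%. All 10 genes passed the filter on low counts, but Gpihbp1, Cd36, Fabp4, Rbp7 and Plin4 did so through their NMF counts, so that the number of lower genes was bound to hold such genes. The median log2 fold change, pCAF over NMF, was -3.67 over the 10 genes and -0.022 over all tested genes. In bulk RNA, fewer cells of a type and less RNA per cell cannot be told apart. The number lower was 7 without NMF replicate 1, 2 or 3, where Plin4 no longer passed, and 10 without pCAF replicate 1 and NMF replicate 4 together.

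**Figure D1:**
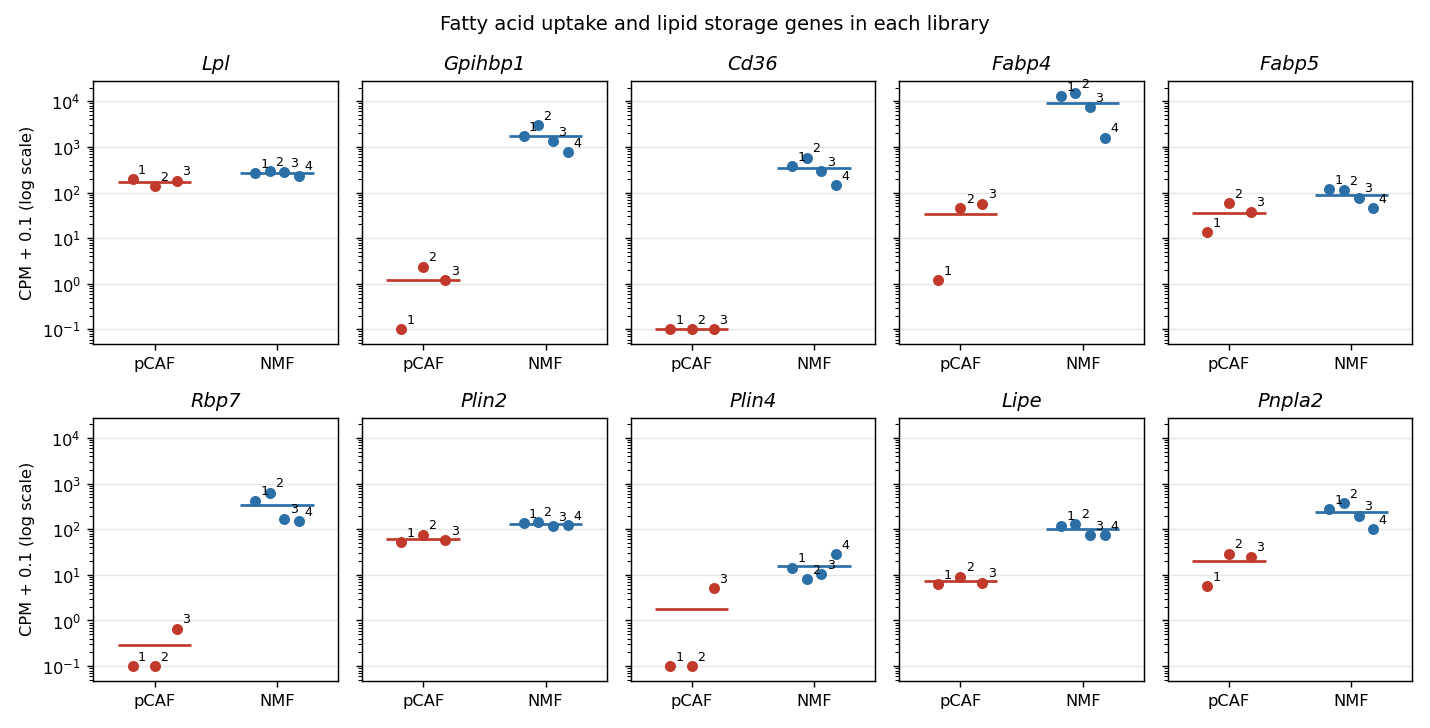
Level of each gene in each library as CPM plus 0.1 on a log scale, with pCAF on the left and NMF on the right of each panel. Points are libraries, numbered by replicate, and bars are group means. Fabp5 is the gene whose groups overlap, and Cd36 sits at the bottom of the axis in all 3 pCAF libraries.

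Lpl, the lipase itself, was detected at similar orders of magnitude in both groups. Its level was 196, 139 and 183 CPM in the pCAF libraries, against 262, 293, 279.5 and 234 CPM in the NMF libraries. Each pCAF library was below each NMF library, yet the gap was small: Lpl averaged 173 ± 30.2 CPM in pCAF (SD, n = 3) and 267 ± 25.3 CPM in NMF (SD, n = 4). The log2 fold change of -0.63 (SE 0.24) did not pass (edgeR adjusted p = 0.0758). It did pass without pCAF replicate 1, at -0.74 (edgeR adjusted p = 0.0254), and under DESeq2 (adjusted p = 0.0313). It also passed with scaling to library totals, at -0.87 (edgeR adjusted p = 0.0187), a scaling that moved the median of all genes to -0.26. The gene lies on mm10 chromosome 8 (68880491 to 68907448, plus strand).

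Gpihbp1, the endothelial protein that anchors Lpl in capillaries, was close to 0 in pCAF. The pCAF libraries held 0, 4 and 2 counts (0, 2.25 and 1.11 CPM), against 4388, 7165, 3784 and 4077 counts in the NMF libraries (1695, 3025, 1332 and 761 CPM). The groups were far apart, and within NMF the lowest library was replicate 4 and the highest replicate 2. Gpihbp1 was 1464-fold lower in pCAF, a log2 fold change of -10.52 (SE 0.84, edgeR adjusted p = 3.91e-05). The fold rests on 6 pCAF counts in all. Without pCAF replicate 2, 2 counts remain, and NMF exceeds pCAF by a ratio of 2656 with a 95% counting interval of 735 to 21934. The lipase transcript was thus present in every pCAF library, while that of its capillary anchor was nearly missing. The gene lies on mm10 chromosome 15 (75596628 to 75599481, plus strand).

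Cd36, a membrane receptor for long-chain fatty acids, had no count in any pCAF library, against 987, 1385, 832 and 775 counts in the NMF libraries. In NMF this was 381, 585, 293 and 145 CPM, a mean of 351 ± 184 (SD, n = 4). The absence was shared by all 3 pCAF libraries, and the order of the NMF libraries was the one seen for Gpihbp1. With 3 counts in the whole pCAF group taken as the floor, which is 0.557 CPM, Cd36 was at least 629.6-fold lower in pCAF (edgeR adjusted p = 1.11e-04). Without pCAF replicate 1, 2 or 3 the bound was 419.7, 420.8 or 416.5, since fewer libraries raise the floor. The gene lies on mm10 chromosome 5 (17781690 to 17888801, minus strand).

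Fabp4, the fatty acid binding protein of fat cells, macrophages and capillary endothelium, was lower in pCAF with a wide spread in both groups. Its counts were 2, 81 and 102 in the pCAF libraries, against 33292, 36065, 20970 and 8444 in the NMF libraries. In CPM this was 1.11, 45.6 and 56.5 in pCAF, against 12859, 15228, 7382 and 1577 in NMF. The low pCAF library was replicate 1 and the low NMF library was replicate 4, and the groups did not overlap. Fabp4 was 269-fold lower, a log2 fold change of -8.07 (SE 1.26, edgeR adjusted p = 0.00118). Leaving out each library in turn gave folds from 182 (without pCAF replicate 1) to 392.3 (without pCAF replicate 3), each past the threshold. The gene lies on mm10 chromosome 3 (10204088 to 10208576, minus strand).

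Fabp5, the related binding protein first known from skin, was the gene whose groups overlapped. It measured 13.3, 57.5 and 38.2 CPM in the pCAF libraries, against 119, 112, 77.1 and 44.6 CPM in the NMF libraries. NMF replicate 4 lay below pCAF replicate 2, while pCAF replicate 1 was the lowest of all. Fabp5 averaged 36.3 ± 22.1 CPM in pCAF (SD, n = 3) and 88.0 ± 34.2 CPM in NMF (SD, n = 4), and its log2 fold change of -1.27 (SE 0.49) did not pass (edgeR adjusted p = 0.0795). It passed without pCAF replicate 2 (edgeR adjusted p = 0.0474), without NMF replicate 4 (edgeR adjusted p = 0.0467) and under DESeq2 (adjusted p = 0.0343). Fabp5 lies 187.5 kb from Fabp4 on chromosome 3 (10012548 to 10016607, plus strand), with 4 protein-coding genes between them, among them the family members Fabp9 and Pmp2.

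Rbp7, the cellular retinol-binding protein, was nearly missing from pCAF. The pCAF libraries held 0, 0 and 1 counts, against 1096, 1488, 488 and 794 counts in the NMF libraries, or 423, 628, 172 and 148 CPM in NMF. Replicates 1 and 2 were the high NMF libraries. NMF exceeded pCAF by a ratio of 1582 with a 95% counting interval of 284 to 62506 (edgeR adjusted p = 7.26e-05). Without pCAF replicate 3, which held the single count, Rbp7 was at least 407-fold lower in pCAF. The gene lies on mm10 chromosome 4 (149449687 to 149454978, minus strand).

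Plin2, the droplet coat protein found in most cell types, was 2.1-fold lower. It measured 51.6, 76.6 and 57.1 CPM in the pCAF libraries, against 134, 145, 116 and 123 CPM in the NMF libraries. The groups were separate and each was tight, at 61.8 ± 13.2 CPM in pCAF (SD, n = 3) and 129.6 ± 12.8 CPM in NMF (SD, n = 4). The log2 fold change was -1.07 (SE 0.25, edgeR adjusted p = 0.0105), and Plin2 passed in every alternative run. The gene lies on mm10 chromosome 4 (86648386 to 86670060, minus strand).

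Plin4, a perilipin of fat cells, was scarce in both groups. The pCAF libraries held 0, 0 and 9 counts, against 37, 19, 29 and 153 counts in the NMF libraries. That is 0, 0 and 4.99 CPM in pCAF, against 14.3, 8.02, 10.2 and 28.6 CPM in NMF, where replicate 4 was the highest library. Plin4 was the gene for which NMF replicate 4 stood highest. Its log2 fold change was -3.18 (SE 1.02, edgeR adjusted p = 0.0413). That fold, 9.03, rests on the 9 counts of pCAF replicate 3, without which Plin4 was at least 18.1-fold lower in pCAF. This call was lost on leaving out pCAF replicate 2 (edgeR adjusted p = 0.101) or NMF replicate 1, 2, 3 or 4 (edgeR adjusted p = 0.0845, 0.063, 0.0652 and 0.0975). The 3' end of Plin4 on mm10 chromosome 17 (56100591 to 56109803, minus strand) overlaps that of Hdgfl2 on the other strand. Whether counting used strand is not given in the sources used here, so reads of the pair cannot be told apart.

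Both lipases of the storage droplet were lower by more than 10-fold. Lipe, the hormone-sensitive lipase, measured 6.10, 9.01 and 6.65 CPM in the pCAF libraries, against 120, 133, 72.9 and 73.8 CPM in the NMF libraries. NMF replicates 1 and 2 were the higher pair and replicates 3 and 4 the lower. Lipe was 13.7-fold lower, a log2 fold change of -3.77 (SE 0.38, edgeR adjusted p = 1.04e-04). Pnpla2, the lipase that starts triglyceride breakdown, measured 5.55, 28.7 and 24.9 CPM in the pCAF libraries, against 274, 369, 199 and 99.7 CPM in the NMF libraries. Its lowest libraries were replicate 1 in pCAF and replicate 4 in NMF, the pattern of Fabp4. Pnpla2 was 11.9-fold lower, a log2 fold change of -3.57 (SE 0.61, edgeR adjusted p = 0.00193). Both genes lie on mm10 chromosome 7, Lipe from 25379527 to 25398710 on the minus strand and Pnpla2 from 141455198 to 141460743 on the plus strand.

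Promoters were found in RefSeq for 6 of the 10 genes (GRCm38.p6, 250 bases before to 50 bases after the annotated start). Printed here, to set a pair of genes nearly missing from pCAF beside one that was 2.1-fold lower, are Cd36 (chr5:17835847-17836146), Rbp7 (chr4:149454919-149455218) and Plin2 (chr4:86670010-86670309), each on the minus strand and written 5′ to 3′ with motif matches in capitals.
Cd36: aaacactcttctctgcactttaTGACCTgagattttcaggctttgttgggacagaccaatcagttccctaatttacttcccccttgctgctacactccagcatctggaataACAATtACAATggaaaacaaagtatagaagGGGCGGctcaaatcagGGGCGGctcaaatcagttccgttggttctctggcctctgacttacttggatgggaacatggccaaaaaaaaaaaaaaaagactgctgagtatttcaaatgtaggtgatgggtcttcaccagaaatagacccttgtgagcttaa
Rbp7: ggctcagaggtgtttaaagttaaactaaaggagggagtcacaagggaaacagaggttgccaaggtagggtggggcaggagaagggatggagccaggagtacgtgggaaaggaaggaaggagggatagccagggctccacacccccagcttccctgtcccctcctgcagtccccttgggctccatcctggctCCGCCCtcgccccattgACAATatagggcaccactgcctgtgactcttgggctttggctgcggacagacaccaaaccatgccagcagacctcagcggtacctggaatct
Plin2: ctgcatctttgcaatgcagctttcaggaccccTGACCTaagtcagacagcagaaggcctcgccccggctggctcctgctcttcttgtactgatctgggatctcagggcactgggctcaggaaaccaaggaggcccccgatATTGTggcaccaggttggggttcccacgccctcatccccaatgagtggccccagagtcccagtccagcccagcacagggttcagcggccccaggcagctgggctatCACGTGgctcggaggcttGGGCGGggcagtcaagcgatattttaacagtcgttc
Capitals mark matches on either strand to the PPAR and RXR half-site AGGTCA, the E-box CACGTG, the GC box GGGCGG and the SOX motif ACAAT. The TATA box TATAAA, the ETS motif CCGGAA and the paired PPAR and RXR site, which is the half-site repeated after any 1 base, were also searched on both strands and had no match in these 3 windows. The half-site matched in Cd36 (228 bases before the start) and Plin2 (218 bases before), both on the opposite strand and both among the 16.3% of 32851 promoters that hold it. ACAAT matched in all 3 windows and is held by 31.0% of promoters, GGGCGG matched in all 3 and is held by 35.7%, and CACGTG matched in Plin2 alone and is held by 7.15%. TATAAA is held by 13.6%, CCGGAA by 14.9% and the paired site by 0.0396%. A match describes letters in the window and is not a measured binding site. The Cd36 window lies within the gene, whose upstream end is at 17888801, so it covers 1 annotated start of Cd36. The sequence at that upstream end was not searched.

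Capillary and fat cell markers were themselves lower in pCAF, so the group difference alone does not say which of the 2 a gene follows. Of 25 blood capillary and endothelial markers 24 were lower and 0 higher, with a median log2 fold change of -6.02. Their summed level was 246 to 263 CPM in pCAF and 4985 to 9426 CPM in NMF, and Sox17 and Btnl9 had no count in pCAF. Among the most abundant, the water channel Aqp1 averaged 24.9 ± 4.03 CPM in pCAF (SD, n = 3) and 1619 ± 604 CPM in NMF (SD, n = 4; edgeR adjusted p = 3.29e-05). The diaphragm protein Plvap averaged 27.3 ± 7.14 CPM in pCAF (SD, n = 3) and 813 ± 244 CPM in NMF (SD, n = 4; edgeR adjusted p = 4.12e-05). Car4, the exception, did not pass (edgeR adjusted p = 0.2) and passed without pCAF replicate 1 (edgeR adjusted p = 1.09e-04). The call of Rgcc was lost without pCAF replicate 2 or 3 or without NMF replicate 1, 2 or 3.

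Of 20 fat cell markers, 11 passed the filter on low counts; 10 of these were lower and 0 higher, with a median log2 fold change of -6.04, or -4.94 with genes at 0 in pCAF set at their bound. These 10 passed that filter through their NMF counts, as did many capillary markers, so neither number of lower genes is a result on its own. Their summed level over all 20 was 15.8 to 66.5 CPM in pCAF and 643 to 1136 CPM in NMF, and 10 of the 20 had no count in pCAF, 2 of which, Acvr1c and Pnpla3, had none in NMF either. The adipokine Adipoq held 99, 38, 73 and 155 counts in the NMF libraries, and 1 count in all of pCAF. The secreted protease Cfd held 946, 231, 474 and 1364 counts in NMF, and 2 in pCAF. The droplet coat protein of fat cells, Plin1, held 5, 3, 0 and 3 counts in NMF, and Lep, the hormone leptin, 4, 1, 4 and 0. So these defining fat cell genes were at or near 0 even in NMF, while others of the list were not. Mrap did not pass, at 23.2 ± 26.1 CPM in pCAF (SD, n = 3) and 5.65 ± 1.61 CPM in NMF (SD, n = 4; edgeR adjusted p = 0.0501), and was higher without pCAF replicate 2 or 3. pCAF replicate 1 held 96 of its 125 pCAF counts, and without that library its fold was 1.41 (edgeR adjusted p = 0.44) in place of 4.03.

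**Figure D2:**
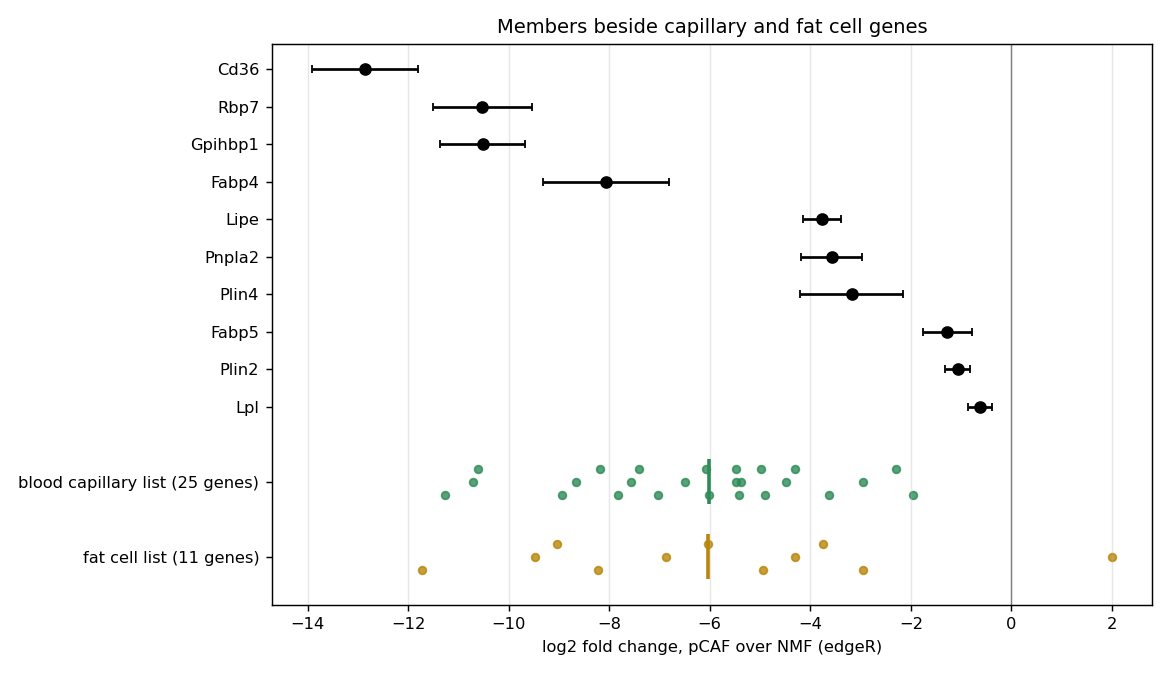
Log2 fold change of each gene, pCAF over NMF, with its standard error (top), beside single genes of the capillary and fat cell lists with list medians as vertical lines. The medians lie at -6.02 and -6.04; the fitted values of Cd36, Rbp7 and other genes with 0 to 3 counts in pCAF depend on the fit and are not bounds.

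The fitted log2 fold changes of Gpihbp1, Cd36, Fabp4 and Rbp7 lay beyond the medians of both lists. Those of Lipe, Pnpla2 and Plin4 lay between the medians and 0, at -3.77, -3.57 and -3.18, and those of Fabp5, Plin2 and Lpl nearer to 0. Counts set against the summed capillary counts of the same library, which no scaling touches, show how each gene compares with capillary genes. Per 1000 capillary counts, Lpl held 745, 548 and 745 counts in pCAF, against 35.8, 31.0, 52.3 and 46.9 in NMF. Plin2 held 196, 303 and 233 counts in pCAF, against 18.3, 15.4, 21.8 and 24.6 in NMF. Relative to capillary genes, both were thus higher in every pCAF library than in any NMF library, 16.5 times for Lpl and 12.0 times for Plin2 on pooled counts. Fabp5 was similar, at 50.5, 227 and 156 per 1000 in pCAF, against 16.2, 11.9, 14.4 and 8.95 in NMF.

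The ratio of Lipe moved less, at 23.2, 35.6 and 27.1 per 1000 capillary counts in pCAF, against 16.3, 14.2, 13.6 and 14.8 in NMF. Pnpla2 held 21.1, 114 and 102 per 1000 in pCAF, against 37.4, 39.1, 37.2 and 20.0 in NMF. Gpihbp1 was lower in pCAF also against this sum, with 0, 8.91 and 4.51 per 1000 in pCAF, against 231, 321, 249 and 153 in NMF. Rbp7, at 0, 0 and 2.26 in pCAF against 29.7 to 66.7 in NMF, and Cd36, at 0 in pCAF against 29.0 to 62.0 in NMF, were too. The pCAF sum was carried by a few genes, Rgcc with 452 counts over the 3 libraries and Car4 with 210 foremost. Other capillary genes were as scarce there as Gpihbp1, Cd36 and Rbp7: Cd300lg held 1 count in pCAF and 4435 in NMF, Tie1 1 and 1436, and Sox17 0 and 1419. Against such genes the 3 are not shown to be lower. Fabp4 held 4.21, 180 and 230 per 1000 in pCAF, against 1750, 1620, 1380 and 316 in NMF. The pCAF denominators were 475, 449 and 443 counts, against 15169 to 26695 in NMF. Set against fat cell counts instead, the pooled ratios of pCAF over NMF were nearly the same, at 15.9 in place of 16.5 for Lpl, 1.86 in place of 1.93 for Lipe and 0.0181 in place of 0.0188 for Gpihbp1. The fat cell sums in pCAF were 120, 28 and 30 counts, and Mrap, which did not pass, held 96, 16 and 13 of these. The 2 pooled ratios of any gene differ by the same factor, that of the list sums, so their likeness is not a separate result for each gene. That factor depends on Mrap, and ratios without Mrap were not computed. As computed, these ratios do not set the capillary and the fat cell list apart.

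Capillary and fat cell marker levels differed between the 4 NMF libraries, which allowed a comparison that the group difference does not enter. For each gene and for the median of each list, log2 CPM was centred on its NMF mean. The capillary profile was 0.22, 0.54, -0.28 and -0.48 in NMF replicates 1 to 4, highest in replicate 2. The fat cell profile was 0.35, -0.41, -0.03 and 0.09, with replicate 2 lowest. The 2 profiles thus parted most in replicate 2, and lay 0.57 apart as a root mean square difference over the 4 libraries. This is a description over 4 libraries, with no test.

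Of the 10 genes, 9 lay nearer to the capillary profile and 1, Plin4, nearer to the fat cell profile. Among 6238 other genes of at least 20 CPM in NMF, 35.1% lay nearer to the capillary profile. The capillary profile varied more over the NMF libraries than the fat cell profile. A gene with the same level in every NMF library therefore lies nearer to the fat cell profile by construction. The 35.1% is thus no measure of what genes as variable as most of the 10 would give, and a share among such genes was not computed. The capillary list itself gave 24 of 25, and the fat cell list itself gave 4 of 11. Each list gene helped to set the profile of its own list, so these numbers are not an independent check of the measure. Even with that help, 4 of the 11 fat cell genes lay nearer to the capillary profile. Lipe was the closest of the 10, at 0.10 from the capillary and 0.53 from the fat cell profile, and 0.561% of the other genes lay closer to the capillary profile. Gpihbp1 lay at 0.345 and 0.894, Cd36 at 0.373 and 0.887, Pnpla2 at 0.346 and 0.839, Rbp7 at 0.47 and 1.00, and Fabp5 at 0.27 and 0.65, each capillary first. All 6 were above their NMF mean in replicate 2 and below it in replicate 4.

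Fabp4 was far from both, at 0.96 from the capillary and 1.38 from the fat cell profile, and 97.3% of the other genes lay nearer to the capillary profile than it did. Its deviations were 0.90, 1.14, 0.10 and -2.13, a drop in NMF replicate 4 well beyond that of capillary genes. Without NMF replicate 4 its distance to the capillary profile was 0.14, and that of Pnpla2 was 0.05, so the excess rested on that library. Plin4, at 0.99 and 0.55, was highest in NMF replicate 4, where its deviation was 1.03; without that library it lay 0.04 from the fat cell profile. Lpl and Plin2 hardly varied within NMF, each by 1.25 times from lowest to highest library, and were near neither profile in particular. Lpl lay at 0.33 and 0.36, and Plin2 at 0.30 and 0.34. Both moved to the fat cell side when list means replaced medians, when Cfd was dropped from the fat cell list, or without NMF replicate 2, which left 7 of 10 on the capillary side.

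**Figure D3:**
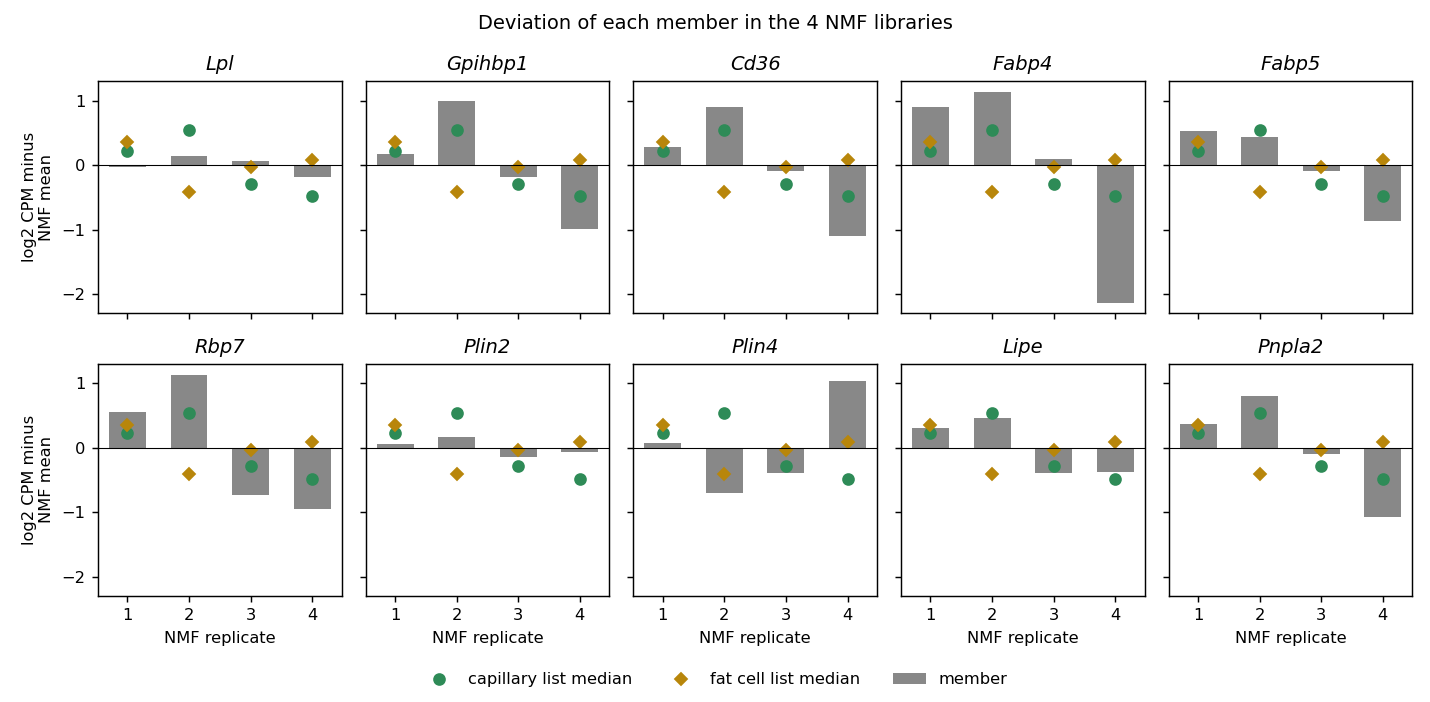
Deviation of each gene from its own NMF mean in log2 CPM (grey bars) in NMF replicates 1 to 4, with the medians of the capillary list (green circles) and the fat cell list (gold diamonds). Replicate 2 separates the lists, at 0.54 for capillary and -0.41 for fat cell genes; Fabp4 reaches -2.13 in replicate 4, and Plin4 stands at 1.03 there.

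Other cell types also varied across NMF, so the distance was taken to 8 cell type lists, a comparison added after the data were seen. The capillary profile was then nearest for 4 genes: Gpihbp1, Cd36, Rbp7 and Lipe. The epithelial profile came next for Gpihbp1 (0.451 against 0.345), Rbp7 (0.535 against 0.468) and Cd36, for which it was almost level (0.386 against 0.373). Fabp5 (0.12) and Pnpla2 (0.32) lay nearest to the epithelial profile, Pnpla2 with the capillary profile close behind at 0.35. Fabp4 lay nearest to the macrophage and leukocyte profile (0.67), Lpl to the fat progenitor and resting fibroblast profile (0.18), Plin2 to the mural profile (0.10) and Plin4 to the fibroblast profile (0.47). The macrophage and leukocyte profile (-1.41) and the epithelial profile (-0.896) departed most in NMF replicate 4. Distances to the 8 lists were not computed without that library. Without it, Fabp4, Fabp5 and Pnpla2 lay 0.14, 0.16 and 0.05 from the capillary profile. The summed level of macrophage and leukocyte markers was 85.4, 101 and 47.1 CPM in pCAF, against 301, 225, 353 and 55.5 CPM in NMF, lowest in the NMF library where Fabp4 was lowest. Of 9 tested markers of that list 6 were lower in pCAF and 0 higher, a count that was 1 to 3 without pCAF replicate 2 or 3 or without NMF replicate 1, 2 or 3. Epithelial markers summed to 105, 188 and 259 CPM in pCAF, against 553, 377, 334 and 187 CPM in NMF, with 4 of 7 lower and 0 higher. That count was 1 without NMF replicate 1 and 2 without NMF replicate 2. Of 9 tested fat progenitor and resting fibroblast markers 4 were lower and 0 higher, but 7 were lower once pCAF replicate 1 was left out. The number fell to 2 on dropping pCAF replicate 2, or NMF replicate 1, 2 or 3, from the fit. Of 10 mural markers 4 were lower and 1 higher (2 higher without NMF replicate 4), and of 4 tested lymphatic markers 1 was lower and 1 higher. Over all tested genes, 14.2% were lower and 14.3% higher. Most lower genes of the macrophage and leukocyte, epithelial, fat progenitor and mural lists passed the filter on low counts through NMF. Their numbers of lower genes are therefore not results on their own. The sort of both groups was against EpCAM and CD45, which mark epithelial cells and leukocytes. The part of these cells in the levels of these genes was not tested.

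**Figure D4:**
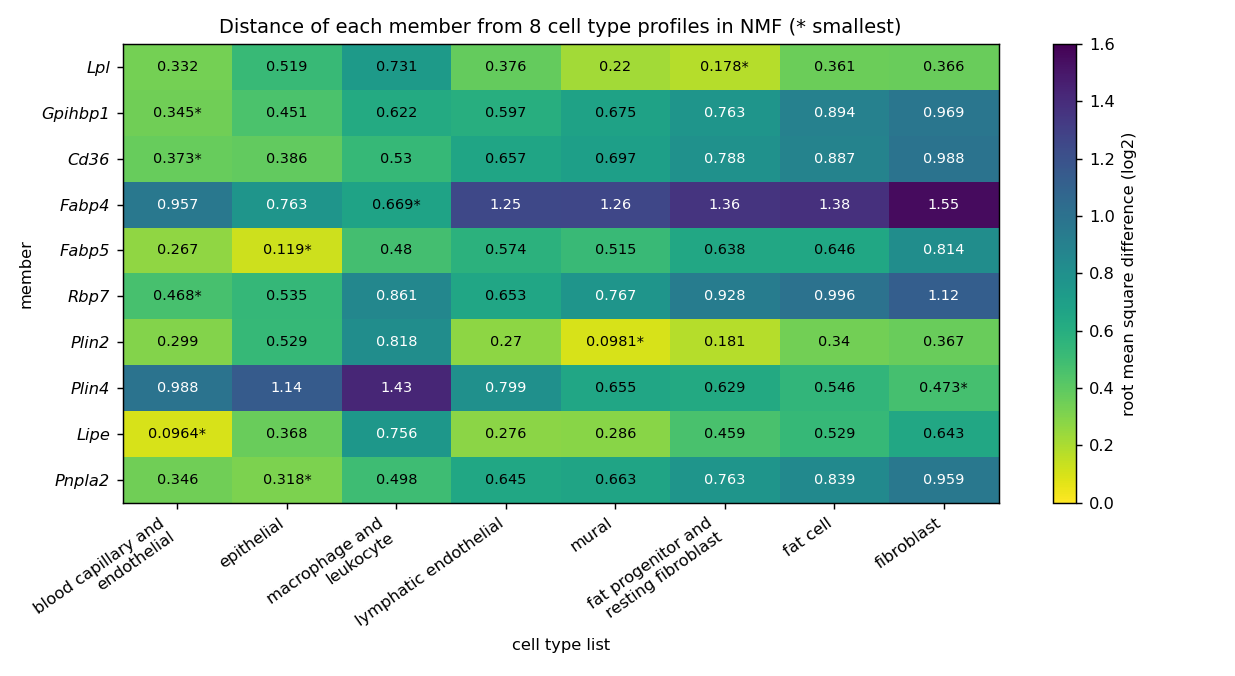
Root mean square difference (log2) over the 4 NMF libraries between each gene (rows) and the median profile of 8 cell type lists (columns); an asterisk marks the smallest value in a row. Gpihbp1, Cd36, Rbp7 and Lipe have theirs in the capillary column, Fabp4 in the macrophage and leukocyte column at 0.67, and Plin2 in the mural column at 0.10.

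The genes with the most similar levels across the 4 NMF libraries were listed as a further description, 3 for each gene of at least 20 CPM in NMF; Plin4 fell below that level. Sox18, an endothelial transcription factor, was the nearest to Gpihbp1 (0.087) and the third nearest to Cd36 (0.078), and Timp4, a metalloproteinase inhibitor, was among the 3 nearest to both. Gabarapl2, an autophagy gene, was the nearest to Cd36 (0.070), and 2810025M15Rik the second nearest to Gpihbp1 (0.115). Sdpr, a caveolar coat protein gene, was nearest to Lipe (0.018), with 599, 654, 371 and 372 CPM in NMF, followed by the zinc exporter gene Slc30a1 (0.038) and Pinx1 (0.045). Rapgef2, an exchange factor gene, was nearest to Pnpla2 (0.063). Gata2 (0.074), a transcription factor of endothelial and blood lineages, and Tm4sf1 (0.083) came next. Ggta1, Pde2a and Map4k2 were nearest to Fabp5, and Rcsd1, Endou and Chp2 to Rbp7. For Fabp4 the nearest genes were farther off: 8430408G22Rik (0.21), Ptpn18 (0.23) and Irx3 (0.23). Lpl and Plin2, which varied little, had close neighbours of no particular kind, namely Ccdc28b, Yeats4 and H2-D1 for Lpl and Smad5, Mat2b and Rpl23 for Plin2.

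The other lipid genes, in 8 lists by role, did not all go one way. Many of the lower genes in these lists, Aqp7, Ces1d and Cidec among them, passed the filter on low counts through NMF. The numbers of lower genes are therefore not results on their own, and 14.2% of all tested genes were lower. Of 9 tested genes that control lipoprotein lipase, 2 were lower and 0 higher, with a median log2 fold change of 0.17. Those lower were the apolipoprotein Apoc1 (-3.53, edgeR adjusted p = 0.0163) and the lipoprotein receptor Vldlr (-2.20, edgeR adjusted p = 0.0177), and the count was 1 without pCAF replicate 3 or NMF replicate 1. Without NMF replicate 4, 1 was higher. Angptl4, a secreted inhibitor of the lipase, averaged 812 ± 74.4 CPM in pCAF (SD, n = 3) and 671 ± 270 CPM in NMF (SD, n = 4), which did not pass (edgeR adjusted p = 0.617). Of 9 tested genes of fatty acid uptake, activation and binding, 0 were lower and 2 higher, with a median of 0.09. Acsl4, an acyl-CoA synthetase that prefers polyunsaturated fatty acids, averaged 182 ± 74.5 CPM in pCAF (SD, n = 3) and 9.60 ± 1.85 CPM in NMF (SD, n = 4), a log2 fold change of 4.25 (SE 0.36, edgeR adjusted p = 4.68e-05). This fatty acid activating enzyme was thus 19.0-fold higher in the same pCAF libraries in which Cd36 had no count. Acsl3 was higher by 1.36 on the log2 scale (edgeR adjusted p = 0.0228), a call lost without pCAF replicate 2 or 3 or NMF replicate 1, 2 or 3 and with scaling to library totals, while Acsl5 and the acyl-CoA binding protein Dbi did not pass. The number higher was 3 without NMF replicate 4.

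Most tested genes of retinoid binding and transport went the other way from Rbp7. Of 5 tested genes, 4 were higher and 1 lower, with a median of 3.09. The retinoic acid binding protein Crabp1 rose by 3.59 (edgeR adjusted p = 1.96e-04) and the retinol transporter Stra6 by 3.26 (edgeR adjusted p = 0.00178), both log2 fold changes. Crabp2 was higher by 3.09 (edgeR adjusted p = 0.0302), a call lost without pCAF replicate 2 or 3 or NMF replicate 1, 2 or 3. Rbp4, the serum carrier, was lower by a log2 fold change of -1.09 (edgeR adjusted p = 0.0158).

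Droplet and lipolysis genes held calls in both directions. Of 8 tested droplet protein genes 4 were lower and 1 higher (median -0.91), with 3 lower without pCAF replicate 2 or 3, and of 8 tested lipolysis genes 5 were lower and 1 higher (median -3.04). Mgll, which cleaves the last fatty acid from glycerol, averaged 42.7 ± 18.1 CPM in pCAF (SD, n = 3) and 405 ± 161 CPM in NMF (SD, n = 4; log2 fold change -3.25, edgeR adjusted p = 5.11e-04). G0s2, an inhibitor of Pnpla2 found on both lists, fell by 2.96 on the log2 scale (edgeR adjusted p = 4.96e-04). The glycerol channel Aqp7 had no count in pCAF, against 94, 116, 67 and 109 counts in NMF (edgeR adjusted p = 3.52e-04). The carboxylesterase Ces1d had none in pCAF, against 155, 111, 126 and 366 in NMF (edgeR adjusted p = 6.09e-05), and the droplet fusion protein Cidec none in pCAF, against 120, 58, 104 and 142 in NMF (edgeR adjusted p = 2.01e-04). Hilpda, a hypoxia-induced droplet protein that inhibits Pnpla2, was higher at 201 ± 59.2 CPM in pCAF (SD, n = 3) and 27.9 ± 8.97 CPM in NMF (SD, n = 4; log2 fold change 2.86, edgeR adjusted p = 2.53e-04). The 2 inhibitors of Pnpla2 on these lists therefore changed in opposite directions. Abhd5, its activator, measured 17.9 ± 8.85 CPM in pCAF (SD, n = 3) and 17.9 ± 5.77 CPM in NMF (SD, n = 4), and did not pass (edgeR adjusted p = 0.986).

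Synthesis and oxidation genes were called in shares below or near the 28.4% of all tested genes. Of 16 tested genes of fatty acid and triglyceride synthesis 3 were lower and 1 higher, with a median of 0.15. Dgat2, which makes triglyceride, averaged 4.64 ± 1.77 CPM in pCAF (SD, n = 3) and 33.6 ± 5.93 CPM in NMF (SD, n = 4; log2 fold change -2.84, edgeR adjusted p = 6.60e-04). Acacb (-4.27, edgeR adjusted p = 0.0018) and Lpin1 (-1.53, edgeR adjusted p = 0.011) were also lower. Scd2, a desaturase, was higher by 1.23 (edgeR adjusted p = 0.0444), a call lost without pCAF replicate 2 or 3 or NMF replicate 1, 2 or 3 and with scaling to library totals; without pCAF replicate 1 or NMF replicate 4, 2 were higher. Of 10 tested oxidation genes 1 was lower and 0 higher (median -0.45), namely Pdk4 with 3 counts in pCAF and 152 in NMF (edgeR adjusted p = 0.00409). Without pCAF replicate 1 the number lower was 2, and without NMF replicate 4 the number higher was 1.

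Of 11 tested adipogenic and lipid transcription factors 6 were lower and 0 higher, with a median of -1.44. Pparg, the nuclear receptor that drives fat cell formation and is also known from capillary endothelium of fat, averaged 2.24 ± 1.69 CPM in pCAF (SD, n = 3) and 117.5 ± 45.7 CPM in NMF (SD, n = 4). Its log2 fold change was -5.69 (SE 0.58, edgeR adjusted p = 1.12e-04). Its partner Rxra was lower by a log2 fold change of -1.35 (edgeR adjusted p = 0.0049), the sterol-sensing receptor Nr1h3 by -2.48 (edgeR adjusted p = 3.58e-04) and Klf15 by -3.35 (edgeR adjusted p = 0.0113). Cebpb, at 254 ± 156 CPM in pCAF (SD, n = 3) and 162 ± 55.1 CPM in NMF (SD, n = 4), and Srebf1 did not pass (edgeR adjusted p = 0.362 and 0.815). Ebf1 lost its call without pCAF replicate 2 or 3 or NMF replicate 1, 2 or 3, and Cebpd without pCAF replicate 3 or any 1 NMF replicate; the number lower was 4 without pCAF replicate 3 or NMF replicate 1, 2 or 3.

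**Figure D5:**
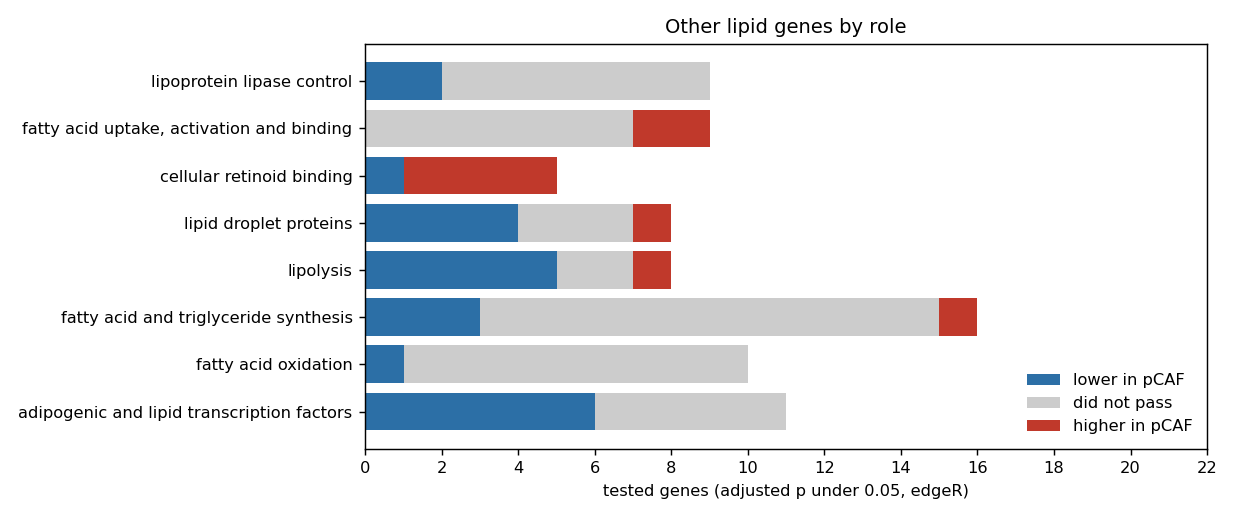
Number of tested genes in 8 lists of other lipid genes (bars) that were lower in pCAF (blue), did not pass (grey) or were higher in pCAF (red) at an adjusted p under 0.05. Lipolysis (5 of 8) and transcription factors (6 of 11) hold the most lower calls, and retinoid binding holds 4 of the 5 tested genes as higher.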

How the data were processed

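The authors deposited raw counts per gene symbol for 7 libraries of 3' ends of polyadenylated RNA. The submitters' processing notes name STAR 2.4.2a, HTSeq, bcl2fastq and the build mm10 without saying what each was for; strandedness and molecular identifiers are not given in the sources used here. Samples were grouped by title and source. The 10 genes and all gene lists were chosen with earlier results of these data known.

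The counts were fitted with edgeR 4.0.16 under R 4.3.3: filterByExpr left 10535 of 24421 symbols, libraries were scaled by TMM, and a robust two-sided quasi-likelihood F test was adjusted by Benjamini-Hochberg over all tested genes. CPM were computed here from the deposited counts. For a gene at 0 in pCAF the fold is a bound at 3 counts over the group; for 1 to 3 counts the ratio has a 95% counting interval. Neither these intervals nor the floor cover more than counting error. Centred profiles are of log2 CPM (prior count 2). Alternatives were DESeq2 1.42.0, its size factors, library totals, other filters, the replicate block and each library left out. Genes were named by a rule: the 10 genes, up to a few list genes by adjusted p or level, and the 3 nearest by pattern; Sox17, Btnl9, Tie1, Acvr1c, Pnpla3, Plin1, Lep, Acsl5, Dbi, Abhd5, Ebf1 and Cebpd were named where a count turned on them, after their values were seen. Positions are from GENCODE M21; blastn 2.17.0 found no copy of a 3' end (at least 80 bp at 95% identity in the last 300 bp) for any of the 10. The methods were tested on simulated data, where most of the smallest planted changes and many of the larger ones were missed. A gene that did not pass is therefore not shown to be equal in the groups. Replicate numbers did not pair the groups: correlations of same-numbered libraries were -0.093, 0.079 and -0.013. No protein sequences were used here, and 1 gene of a list is not reported here.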

Additional observations from a re-analysis of the deposited data

How the results depend on the processing

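No called gene among the 10 or in the lists changed direction under any alternative run, and direction was not compared for other genes. Over the genes of every list, 2032 values kept their direction and their side of the threshold, 76 newly passed and 96 no longer passed. Another 82 values of 27 genes that had not passed changed sign, and 2 of these values passed in the alternative run. Among the genes named, Acsl5 turned to -0.23 with library totals and -0.012 with no filter, and ran from -0.18 to 0.235 on leaving out each library. Abhd5 turned to 0.11 with the replicate block and 0.57 with pCAF replicate 1 and NMF replicate 4 both left out, and ran from -0.29 to 0.33 on leaving out each library. Srebf1 turned to -0.16 with library totals and -0.098 with those 2 libraries left out, and ran from -0.10 to 0.25 on leaving out each. The number of the 10 genes lower in pCAF ran from 7 to 9 on leaving out each library in turn and was 10 under DESeq2. The number of all genes lower ran from 979 to 2187 and higher from 1016 to 2021 on leaving out each library. Without pCAF replicate 1 and NMF replicate 4 together, 2913 were lower and 2802 higher. Scaling to library totals gave 1902 lower and 1121 higher, so that 37.1% of called genes were higher, against 50.2%. Sharing a number did not pair the samples; with the replicate block 1023 genes were lower and 978 higher, and Plin4 alone of the 10 lost its call (edgeR adjusted p = 0.103). At a mean of at least 10 CPM, 6 fat cell markers were lower, since fewer were tested; leaving out single libraries gave 10 lower fat cell markers and 23 to 25 lower capillary markers. The number of genes nearer to the capillary profile was 7 to 9 without single NMF libraries, and 4 when all 8 cell type lists were compared, an alternative added after the data were seen. The low counts of Gpihbp1, Cd36, Rbp7 and Plin4 in pCAF limit how large a fold can be shown. The cause of changes other than fewer genes or libraries was not tested.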
